A study of Mus musculus with 15 samples.

Results

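Small nucleolar RNAs (snoRNAs) and microRNAs that appeared in mRNA-seq libraries of embryonic dorsal forebrain were described across maternal treatment and gender. The genes were chosen by symbol and by level, as Snora, Snord, Scarna or Mir followed by a digit and with a gene-level sum of at least 1 TPM, a length-scaled share of the library's transcripts, in each of 15 libraries. Of 1329 annotated genes with such symbols among 53337 genes of the table, 55 met the limit, 920 were listed at 0 in all 15 libraries and 354 had some value but missed the limit. The 55 comprised 17 C/D box snoRNAs (Snord), 9 H/ACA box snoRNAs (Snora), 1 small Cajal body RNA (Scarna13), 21 microRNA precursors and 7 long non-coding host transcripts of microRNAs. The 48 members other than the host transcripts are called small RNA members here. Mir6392, which missed the limit, was added for comparison because of its earlier result in males.

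The libraries came from embryonic day 18 (E18) C57BL/6J offspring of dams that carried minipumps with arginine vasopressin (AVP) or saline from before breeding, a treatment used as a model of preeclampsia. Male offspring gave 4 libraries with AVP and 4 with saline, female offspring 3 with AVP and 4 with saline, and each is named below by its group and its number in the series. Libraries were made with a stranded mRNA kit, which selects RNA with a poly(A) tail, and were quantified by the authors with Kallisto. By the study's account the libraries of a group came from separate litters, while a male and a female library may be littermates. The labels do not link libraries to litters, so the fit over both genders has no litter term and treats littermates as independent. The library labelled saline male 12 carried sex-linked transcripts of a female type, with 266 TPM of Xist where the other 7 males had at most 1.13, and male results were also computed without it.

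C/D box snoRNAs guide 2′-O-methylation of ribosomal and spliceosomal RNA, and H/ACA box snoRNAs guide pseudouridylation. Most vertebrate snoRNAs are cut from the introns of host genes and carry no poly(A) tail. A microRNA is cut from a hairpin, by Drosha in the nucleus and by Dicer in the cytoplasm, and its mature form pairs with target mRNAs chiefly through the seed at bases 2 to 8. In such libraries a value for one of these genes is therefore the RNA that crossed its annotated precursor, and mature microRNAs were not measured. A lower level and fewer cells that carry the RNA cannot be told apart in bulk tissue.

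The sequences of 5 C/D box members that the results below name are shown. Capitals mark TGATGA within the first 15 bases (C box) and CTGA within the last 15 bases (D box), as written in the RNA strand. In Snord72 no TGATGA was found within the first 15 bases. Snord104 lies at chr11:106500993-106501062 (+), Snord49a at chr11:62603450-62603521 (+), Snord49b at chr11:62603079-62603150 (+), Snord37 at chr10:81178950-81179013 (+) and Snord72 at chr15:5118404-5118484 (+), all on GRCm38.
Snord104: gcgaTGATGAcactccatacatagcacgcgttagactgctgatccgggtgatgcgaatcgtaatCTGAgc
Snord49a: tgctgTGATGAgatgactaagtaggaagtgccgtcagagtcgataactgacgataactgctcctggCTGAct
Snord49b: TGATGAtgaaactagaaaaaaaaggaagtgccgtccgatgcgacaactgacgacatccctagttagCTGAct
Snord37: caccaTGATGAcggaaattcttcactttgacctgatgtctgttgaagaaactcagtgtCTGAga
Snord72: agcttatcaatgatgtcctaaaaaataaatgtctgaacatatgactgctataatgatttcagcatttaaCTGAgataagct

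Both boxes were found in 9 of 17 Snord members, and in 62 of 99 Snord genes of the table (62.6%). The D box letters alone were present in 15 of 17 members and in 92.9% of all Snord genes. ACA before the last 3 bases, the box that gives H/ACA snoRNAs their name, closed 8 of 9 Snora members and 83.3% of 42 Snora genes. Snora31, in an intron of Tpt1 at chr14:75847905-75848034 (+), is printed as an example with ACA in capitals.
Snora31: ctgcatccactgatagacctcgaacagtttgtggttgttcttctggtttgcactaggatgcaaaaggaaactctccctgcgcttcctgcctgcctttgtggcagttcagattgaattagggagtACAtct

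Some members cannot be told from a neighbour. Of the 48 small RNA members, 35 shared no 31-base word with another annotated gene and 13 shared at least 1. Snora34 (chr15:98519716-98519853, -) and Mir1291 (chr15:98519762-98519878, -), both inside Kansl2, have 92 bases in common, in capitals below, so their values split the same reads. Snora16a lies wholly within exons of Snhg12, Mir8094 shares 90 exonic bases with its host Ddx39b, and Mir677 shares 72 with another annotated gene. Snora43 shares 127 of its 139 bases with another annotated gene of the same name. The values of these genes are uncertain to that extent.
Snora34: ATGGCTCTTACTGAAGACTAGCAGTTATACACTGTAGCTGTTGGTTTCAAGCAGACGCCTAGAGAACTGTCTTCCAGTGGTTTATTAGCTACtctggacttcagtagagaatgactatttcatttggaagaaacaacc
Mir1291: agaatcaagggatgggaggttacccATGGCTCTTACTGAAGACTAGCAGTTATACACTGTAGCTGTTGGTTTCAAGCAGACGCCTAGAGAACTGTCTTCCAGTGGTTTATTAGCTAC

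For 7 of the microRNA members that the results name, 1 mature sequence each from RefSeq (GRCm38.p6) is printed with the seed in capitals. All 21 microRNA members had at least 1 mature entry, 33 in all, and no 2 of these entries shared a seed of bases 2 to 8.
miR-5125: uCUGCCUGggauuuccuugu
miR-186-5p: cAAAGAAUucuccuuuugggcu
miR-3060-5p: gGGAGUGCuucgugcuucug
miR-99a-5p: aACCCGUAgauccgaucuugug
miR-343: uCUCCCUUcaugugcccaga
miR-7052-5p: uGUGGGAAgguggaggccuuu
miR-1898: aGGUCAAGguucacaggggauc

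One gene held nearly all of the members' TPM. Mir6236 (chr9:110281287-110281409, +, 123 nt, no host gene on its strand and no 31-base word in another annotated gene) took between 4.44% and 7.50% of a library's TPM. Of its 104 words of 20 bases, 5 occurred on the same strand of another annotated transcript and 5 on the other strand. Only annotated transcripts were searched, and whether its reads came from this locus was not tested. In males its mean was 61119 ± 10078 TPM with AVP and 53037 ± 6056 with saline (SD, n = 4 each). In females the means were 57463 ± 15134 TPM with AVP (n = 3) and 55104 ± 6265 with saline (n = 4). It was also the steadiest member, with a highest library 1.69 times the lowest. By limma's test its AVP against saline log2 fold change was 0.20 ± 0.14 (SE) in males, with an adjusted p of 0.535.

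The other 54 members together summed to between 1910 and 5722 TPM, or 0.191% to 0.572% of a library. Next to Mir6236 stood Mir5125, in Srrm2, which encodes a large splicing-speckle protein, with a mean of 823 TPM over the 15 libraries. Mir8094 in Ddx39b (an RNA helicase of splicing and export) averaged 194 TPM, Mir3060 in Rnf215 178 TPM and Mir186 in Zranb2 114 TPM. Snord104 led the C/D box members at 481 TPM and was followed by Snord88c at 111.0 and Snord49a at 81.8 TPM, then Snord72 at 78.8 and Snord7 at 67.5. Among H/ACA box members the highest means were those of Snora43 (133 TPM), Snora16a (106), Snora17 (87.0), Snora31 (79.9) and Snora57 (75.6). The host transcripts were lower, led by Mir124a-1hg at 92.9, Mir124-2hg at 49.7, Mir9-3hg at 42.6, Mir99ahg at 11.7 and Mir670hg at 9.71 TPM. Mir124a-1hg, Mir124-2hg and Mir9-3hg are the precursors of neuronal and neural progenitor microRNAs. Scarna13 averaged 7.54 TPM.

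**Figure D1:**
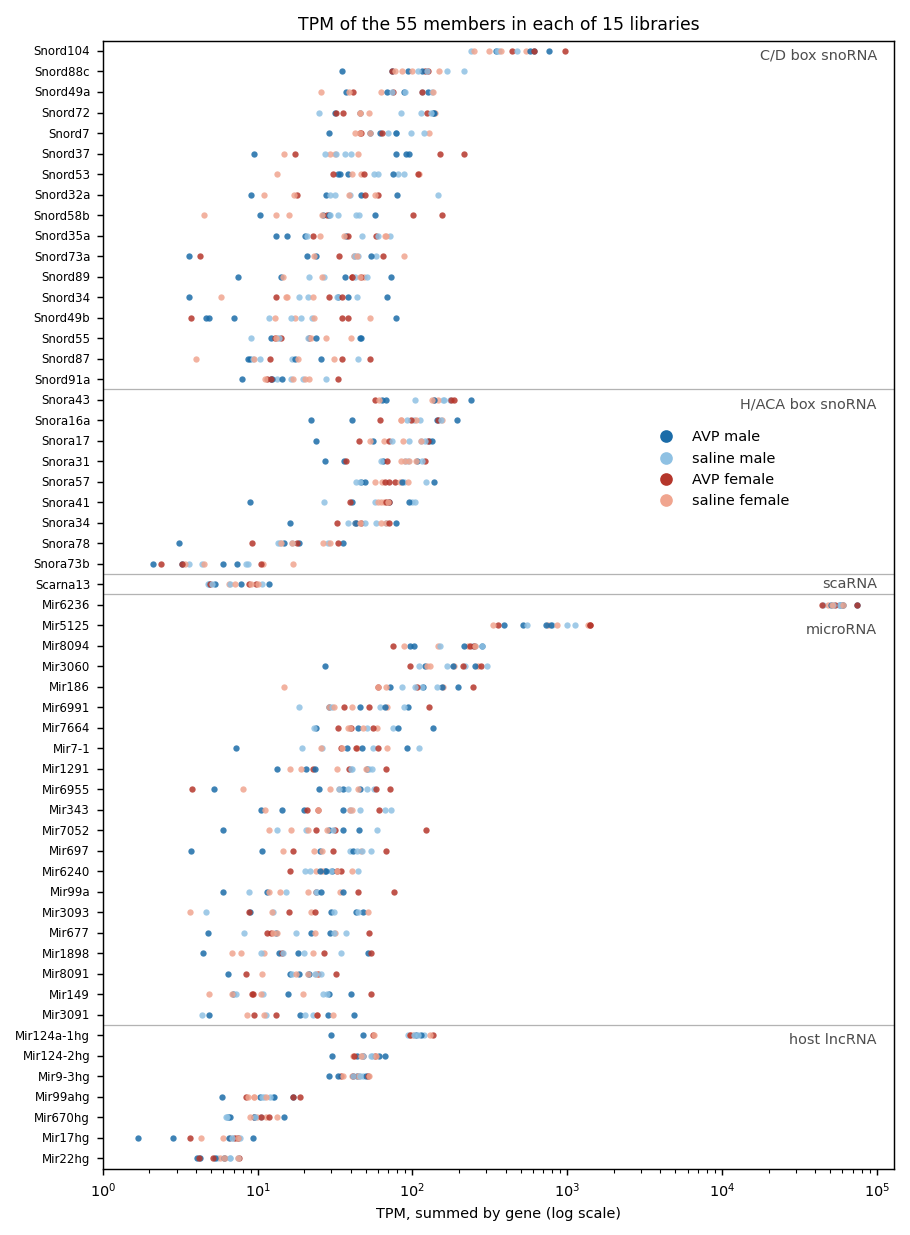
TPM of each of the 55 members (rows, by class) in each of 15 libraries, on a log axis, with points coloured by group. Mir6236 sits between 44419 and 75013 TPM, far above Mir5125, and most snoRNAs and microRNAs spread over a wider range than the host transcripts.

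At the limit that chose the members, the 3 lowest inside were Mir17hg, with a lowest library of 1.68 TPM, Snora73b with 2.10 and Snora78 with 3.09. The 3 nearest outside, Mir1968, Snord65 and Mir7026, each reached 1 TPM in 14 libraries and were listed at 0 in the remaining one, with means of 39.1, 33.5 and 22.0 TPM. Some genes outside the limit thus had higher means than some inside it.

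Small RNA members varied far more between libraries of one group than other genes did. The SD of log2(TPM + 0.5) within groups had a median of 0.90 over C/D box members, 0.75 over H/ACA box members, 0.91 over microRNAs and 0.36 over host transcripts. Over the 15078 genes with at least 1 TPM in 50% of the libraries it was 0.21. Snord49b, for example, read 7.003, 4.67, 4.89 and 78.3 TPM in AVP males 1, 2, 8 and 9, and 22.3, 11.8, 19.03 and 16.4 in saline males 4, 5, 12 and 13. In females it read 3.73, 34.8 and 38.5 TPM in AVP females 3, 10 and 11, and 17.5, 52.8, 12.9 and 23.3 in saline females 6, 7, 14 and 15. AVP male 9 stands far above its group, and the groups overlap in both genders. The intron neighbour Snord49a, spliced from the same host 2410006H16Rik, ran from 25.9 to 136 TPM. The highest library of Snord49a was 5.26 times its lowest, and that of Snord49b was 20.96 times its lowest.

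The deposited values show how few sequenced fragments lay behind this spread. In a given library, transcripts of the same short length had TPM that fitted whole multiples of 1 step in 632 of 694 combinations of library and length (91.1%). The tolerance was 0.05 of a step and grew in proportion to the value for large multiples. Steps far below those at nearby lengths of the library were left out of the 632, and steps far above them were divided by a whole number. The step was read as the TPM of 1 fragment, and it is a multiple of it where all values at a length share a factor, so that fragments are then counted too low. At 70 nt it was 2.85 TPM in saline female 15 and 7.63 in saline female 7. Of 399 member values that could be resolved this way, in 34 members, 64 (16.0%) stood for 1 to 3 fragments and the median was 8 fragments. Of the 632 steps, 17 were over 1.5 times the median step at lengths within 10 nt in the same library, 12 were as far below it and 15 had none so near. Without them 390 member values remained, 61 (15.6%) of them at 1 to 3 fragments, again with a median of 8. The low values of Snord49b in AVP males 1, 2 and 8 were 1 fragment each, and the high value in AVP male 9 was 16 fragments. Fragments are not scaled for sequencing depth, which the table does not hold, and are given as a description with no count test.

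**Figure D2:**
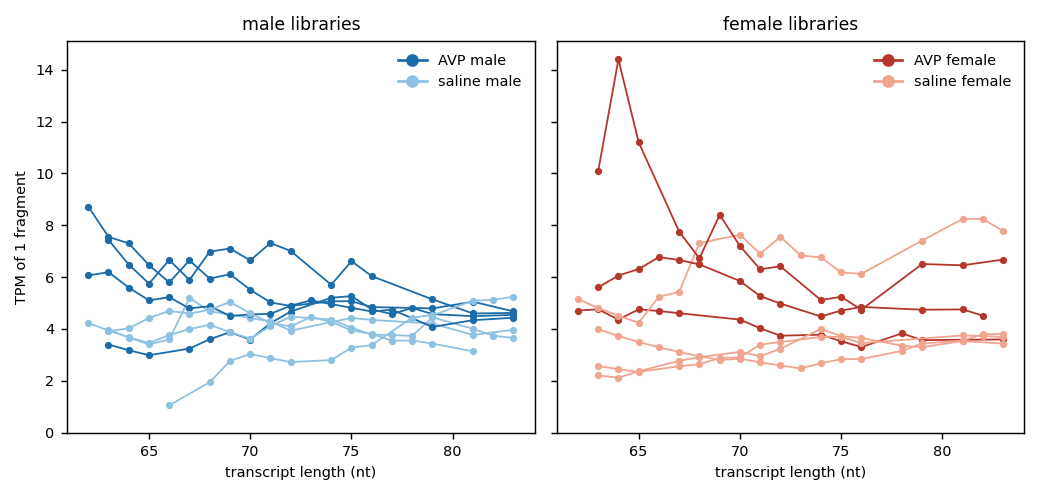
Step read as the TPM of 1 fragment (vertical axis) against transcript length in nt (horizontal axis), with a line for each male library on the left and each female library on the right. Below about 70 nt the AVP female libraries run above most saline female libraries. The highest step, 14.4 TPM in AVP female 11 at 64 nt, is 1.93 times the median at lengths within 10 nt in that library. The lines draw together at longer lengths except for saline female 7 and single lengths at which a step stands apart.

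The step varied most between libraries at the shortest lengths. At 65 nt it was 6.31, 11.2 and 4.75 TPM in AVP females 10, 11 and 3, above all of 2.34, 4.24, 2.36 and 3.49 TPM in saline females 6, 7, 14 and 15. At 63, 64, 66, 67, 68 and 70 nt the AVP and saline female steps overlapped, as at 70 nt with 4.36 TPM in AVP female 3 and 7.63 in saline female 7. Saline males averaged 3.76 TPM at 65 nt over the 3 libraries resolved and AVP males 5.07 over 4. At 83 nt the means were closer, 4.56 TPM with AVP and 4.29 with saline in males, and 5.13 and 4.68 in females. Kallisto divides fragments by an effective length that it sets per library, so equal fragment numbers give unequal TPM where the step differs.

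The first comparison asked whether members differed between AVP and saline males. By limma with Benjamini-Hochberg adjustment none of the 55 passed an adjusted p of 0.05, against 1 of 15271 genes tested (0.00655%), which was Mir6392. With Mir6392 at 0 in all 4 AVP males, the filter on low TPM let it in only because all 4 saline males reached 1 TPM. The filter thus selected it by the group in which it was higher, and its call is given as a description. At an unadjusted p under 0.05, 2 members were higher in AVP males (Snord104 and Snord55) and 9 were lower (16.4%), where 1.11% of all genes were higher and 12.4% lower. The lower members were Snord88c, Snord7, Snord53, Snord35a, Snord91a, Mir1291, Mir343, Mir697 and Mir22hg. That share is near the background of lower genes. The median log2 fold change was -0.43 over the members and -0.10 over all genes tested, with 42 members below 0. Without AVP male 2 the members' median was -0.05 and that of all genes -0.12. The number of lower members was 18 without AVP male 9, where 18.5% of all genes were lower. It was 6 without AVP male 1 (6.91% of all genes), 5 without AVP male 2 (10.5%), 4 without saline male 4 (8.42%) and 3 without saline male 12 (7.10%). Of the 2 higher members, 1 was left without AVP male 8 or 9 or saline male 13, and 0 when AVP male 1 or either of saline males 4 and 12 was left out.

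Mir343, within Ercc2 (a helicase of transcription and DNA repair), had the smallest p in males. It read 19.8, 10.5, 35.5 and 14.4 TPM in AVP males 1, 2, 8 and 9, and 72.8, 66.3, 45.9 and 39.4 TPM in saline males 4, 5, 12 and 13. The groups did not overlap, and the values stood for 3, 2, 7 and 3 fragments against 18, 15, 14 and 10. Its log2 fold change was -1.56 ± 0.35 (SE), with an adjusted p of 0.304 by limma. In females the values overlapped, at 24.6, 61.2 and 20.9 TPM with AVP (3, 10 and 11) and 40.6, 24.7, 11.2 and 39.7 with saline (6, 7, 14 and 15). The host Ercc2, which shares 11 exonic bases with Mir343, averaged 38.3 ± 12.5 TPM in AVP males and 51.9 ± 4.17 in saline males (SD). Its log2 fold change in males was -0.49 ± 0.21 (SE), with an adjusted p of 0.365 by limma.

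The next 4 members by p in males gave smaller differences. Snord88c averaged 79.4 ± 34.3 TPM in AVP males and 154 ± 47.1 in saline males (SD, n = 4 each), with a log2 fold change of -1.03 ± 0.36. Snord35a, from an intron of the ribosomal protein gene Rpl13a, averaged 21.5 ± 10.8 and 50.01 ± 21.7 TPM, a log2 fold change of -1.18 ± 0.42. For Snord91a, in the ribosome assembly gene Tsr1, the means were 11.7 ± 2.73 and 19.2 ± 6.16 TPM. Mir1291 averaged 27.1 ± 16.4 and 47.0 ± 7.95 TPM. The AVP and saline ranges of all 4 overlapped, and their adjusted p by limma lay between 0.315 and 0.32.

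Mir6392, the comparison gene, was chosen for its difference in males, so its values are a description. It was listed at 0 in AVP males 1, 2, 8 and 9 and at 9.3, 11.1, 17.7 and 3.9 TPM in saline males 4, 5, 12 and 13. Those saline values stood for 2, 3, 4 and 1 fragments. AVP females 3, 10 and 11 held 7.0, 14.9 and 4.3 TPM, which in AVP females 10 and 11 stood for 4 and 1 fragments. In AVP female 3 the step was 6.96 TPM at 108 nt, the length of Mir6392, but 3.53 at 106 nt, so its fragments were not resolved. Saline females 6, 7, 14 and 15 held 0, 9.8, 0 and 4.0 TPM. Its host Pnpla3, a lipid hydrolase gene, averaged 2.14 ± 0.75 TPM in AVP males and 3.06 ± 0.47 in saline males, with an adjusted p of 0.394 by limma.

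Female libraries were compared in the same way. None of the 55 members passed the adjusted threshold, nor did any of 15132 genes (0%). Unadjusted, 5 members were higher in AVP females (9.09%) and 0 were lower, where 2.34% of all genes were higher and 2.17% lower. The 5 were Snord58b, Snord104, Mir99a, Mir1898 and Mir7052, and their adjusted p by limma was 0.999. They are 66, 70, 65, 83 and 65 nt long. The number of higher members was 9 without AVP female 3 (2.51% of all genes higher) and 1 without AVP female 11 (2.40%). It was 2 without saline female 6 (1.99%) or 14 (1.96%), and 3 without AVP female 10 (1.90%) or saline female 15 (1.79%).

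Snord104 read 440.1, 614 and 965 TPM in AVP females 3, 10 and 11, and 310.4, 542, 373 and 251 TPM in saline females 6, 7, 14 and 15. In males it read 757, 348, 573 and 611 TPM with AVP (1, 2, 8 and 9) and 352, 473, 240 and 363 TPM with saline (4, 5, 12 and 13). The groups overlap in both genders. Divided by the step, and not scaled for depth, the female values were 101, 105 and 134 fragments with AVP and 107, 71, 120 and 88 with saline. The log2 fold change of its TPM was 0.85 ± 0.31 (SE) in females, with an adjusted p of 0.999 by limma.

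**Figure D3:**
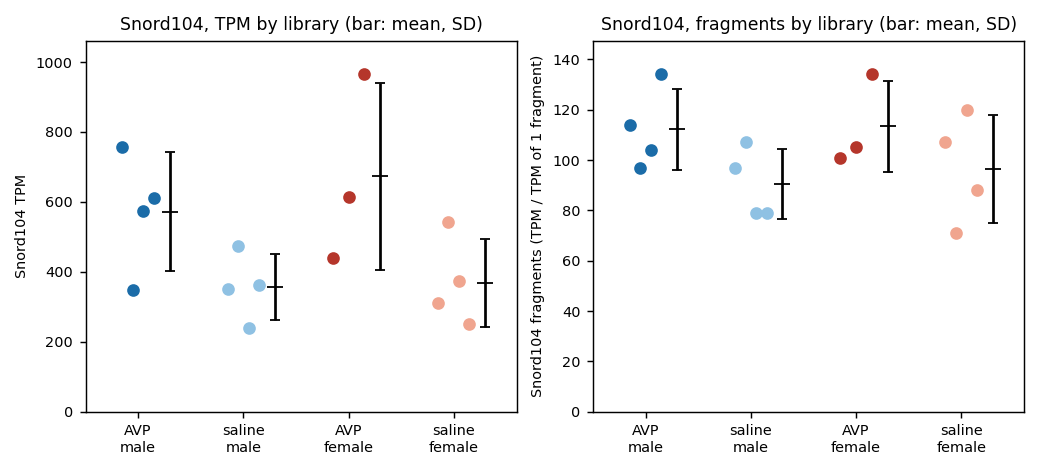
Snord104 in each library by group, as TPM (left) and as fragments, the TPM divided by the TPM of 1 fragment at 70 nt in that library (right), with mean and SD beside the points. TPM run from 240 to 965 and fragments from 71 to 134, and AVP and saline overlap on both scales. Fragments are not scaled for sequencing depth.

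Snord58b, from an intron of the ribosomal protein gene Rpl17, had the largest female difference of the 5. It read 28.1, 102 and 156 TPM in AVP females 3, 10 and 11, and 4.48, 26.2, 15.9 and 13.2 TPM in saline females 6, 7, 14 and 15. The groups did not overlap, and the log2 fold change was 2.55 ± 0.67 (SE), with an adjusted p of 0.999 by limma. Snord58b shares 69.4% of its 31-base words with another annotated gene, so fragments could not be counted. In males its means were 30.9 ± 19.5 TPM with AVP and 37.6 ± 7.68 with saline.

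Mir99a, whose mature form belongs to a conserved family and whose host is Mir99ahg, read 23.8, 75.7 and 44.8 TPM in AVP females 3, 10 and 11. In saline females 6, 7, 14 and 15 it read 21.0, 33.9, 11.8 and 13.96 TPM. These values stood for 5, 12 and 4 fragments with AVP and 9, 8, 5 and 4 with saline, and both scales overlap. Mir7052 stood at 5, 5 and 11 fragments with AVP against 7, 5, 5 and 8 with saline, and at 59.5 ± 55.3 against 19.3 ± 6.90 TPM. Both are 65 nt long, where the step in AVP female 11 was 1.56 times the median at lengths within 10 nt.

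The direction in females went with transcript length. Over all 71 genes tested that were shorter than 75 nt the median log2 fold change was 0.74, and over the 14 members of that length it was 0.82. Among 103 genes of 75 to 99 nt the median was 0.05, and among 14751 genes of 200 nt and over it was -0.05. In males, genes under 75 nt had a median of -0.12, against -0.70 for 107 genes of 75 to 99 nt and -0.50 for 233 genes of 100 nt to just under 200 nt. The members of these lengths followed, at -0.12, -0.57 and -0.52. The part of the step in these values was not tested.

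Markers of other cells were also higher in AVP females. At an unadjusted p under 0.05, 6 of 7 meningeal fibroblast markers were higher, with summed levels of 168 to 248 TPM against 102 to 119 in saline females. All 5 tested red blood cell markers of 7 were higher, at 5129 to 13658 against 2241 to 5707 TPM, and 3 of 6 endothelial markers were, at 170.2 to 174 against 96.2 to 155 TPM. None of the 3 lists had a marker at 0 in every library, and none of these markers passed the adjusted threshold. In males no marker of the first 2 lists passed that unadjusted p. Their part in the members' values was not tested. Cortical plate neuron markers, which define the labelled tissue, summed to between 927 and 1279 TPM in every library.

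A fit over all 15 libraries asked whether the effect of AVP differed between genders, by its interaction term. None of the 55 members and none of 15078 genes (0%) passed the adjusted threshold by limma. Unadjusted, 5 members had a higher AVP effect in females (Snord58b, Mir343, Mir1291, Mir697 and Snord88c) and 1 a lower one (Snord55), where 2.52% of all genes were higher and 1.62% lower. Snord58b had an interaction of 3.04 ± 0.86 on the log2 scale, Mir343 of 1.84 ± 0.66 and Snord55 of -1.59 ± 0.60, each with an adjusted p of 0.896. The 5 became 8 without AVP female 3 (3.68% of all genes higher) or AVP male 9 (4.74%), and 2 without AVP female 10 (1.29%) or saline male 4 (3.97%). They became 3 without AVP male 1 (1.37%) or 2 (2.61%), or without saline female 6 (2.04%) or 14 (2.17%). Snord55 read 46.2, 45.7, 23.9 and 12.2 TPM in AVP males 1, 2, 8 and 9 and 13.3, 21.0, 9.1 and 13.7 in saline males 4, 5, 12 and 13. That is 9, 10, 5 and 3 fragments against 3, 5, 2 and 4.

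As a share of the library the members did not differ beyond their spread. They held 6.47 ± 0.97% of TPM in AVP males and 5.71 ± 0.59% in saline males (SD, n = 4 each), a log2 ratio of 0.18. In females the shares were 6.20 ± 1.34% with AVP (n = 3) and 5.87 ± 0.64% with saline (n = 4), a log2 ratio of 0.08. Since Mir6236 sets that sum, the ratio was also taken without it. It was then -0.20 in males and 0.35 in females, from 3572 ± 1312 against 4108 ± 569 TPM and 4541 ± 1846 against 3568 ± 1103 TPM. Each of these differences is smaller than the SD of at least one of its groups.

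The labels name the columns S1 to S8 and S13 to S20 without saying what these numbers stand for, and the sum without Mir6236 was also taken within each range. Among males the log2 ratio of AVP over saline was -0.78 in the first range and 0.26 in the second (2 libraries a group in each). For females it was -0.77 in the first range, with 1 AVP library and 2 saline, and 0.90 in the second with 2 of each. The direction of the ratio was thus not the same in both ranges for either gender.

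Members rose and fell together by library. The library shift is the median over members of log2(TPM + 0.5) minus that member's mean over the 15 libraries. For the small RNA members it was -1.01 in AVP male 2, -0.47 in AVP male 1, -0.48 in AVP female 3 and -0.42 in saline female 14, and between -0.14 and 0.62 in the other 11 libraries. In AVP male 2, 43 of 48 small RNA members lay below their own mean, and in AVP female 10 only 9 did. C/D box, H/ACA box and microRNA members each had their lowest shift in AVP male 2, at -1.38, -1.52 and -0.87. The host transcripts moved less, from -0.53 in AVP male 1 to 0.37 in AVP female 10.

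The same 4 libraries had the least RNA in transcripts annotated as retained introns, 3.51% to 4.28% of TPM against 5.19% to 6.78% in the other 11. Of the 4, 2 are AVP males, 1 is an AVP female and 1 a saline female. These AVP libraries are all the AVP libraries of columns S1 to S8, and no saline library of those columns is among the 4. In those columns the mean share was 3.58% with AVP and 5.87% with saline in males. In females it was 3.90% (1 AVP library) and 5.51%. In columns S13 to S20 it was 5.70% and 6.03% in males, and 5.98% and 5.39% in females. The part of these shares in the ratios by range was not tested. As the libraries fall into the sets of 4 and 11, correlations are given within the 11 only, as a description. There, the shift of small RNA members of 75 nt and over followed the retained-intron share with a Pearson r of 0.76 and a Spearman rho of 0.90, and with r of 0.57 after leaving out the 2 libraries farthest from the median share. Against the share of TPM in transcripts under 200 nt, the same shift had an r of -0.47, a rho of -0.83 and an r of -0.74 after leaving out 2 libraries in the same way. With the retained-intron share, for members under 75 nt the values were 0.24, 0.08 and 0.06. Both axes are shares of the same library total.

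**Figure D4:**
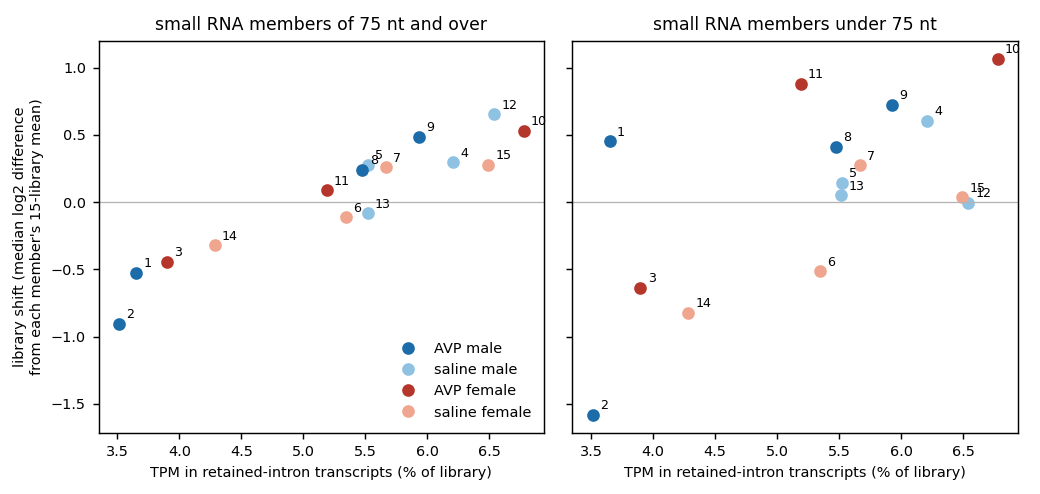
Library shift of small RNA members of 75 nt and over (left) and under 75 nt (right) against the percent of TPM in retained-intron transcripts, with 1 point per library, its number beside it and colour by group. On the left, AVP males 1 and 2, AVP female 3 and saline female 14 lie at the lower left, and on the right AVP male 1 lies apart from the other 3.

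AVP male 1 shows the length split. Its shift was -0.52 for members of 75 nt and over and 0.45 for members under 75 nt, and 14.8% of its TPM lay in transcripts under 200 nt, the highest share of any library. Other RNAs made without a poly(A) tail, such as Rmrp, summed to between 104 and 209 TPM. In AVP male 2 their sum of 123 TPM was the third lowest. In the 11 libraries the shift of all small RNA members had an r of -0.33 with the mitochondrial share. Without the 2 libraries farthest from the median share it was 0.30. With the retained-intron share the same shift had an r of 0.54, and of 0.26 after leaving out 2 libraries in the same way. For members of 75 nt and over the r with the mitochondrial share was -0.26.

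Host genes lie around 41 of the 48 small RNA members on the same strand, in 37 distinct genes of which 27 are protein-coding. Member and host were compared over the 15 libraries as log2(TPM + 0.5) minus the group mean. Pearson's r had a median of 0.38 over the 41 members, with 34 above 0 and 7 below, and Spearman's rho a median of 0.42. By a two-sided permutation test with 100000 resamples and Benjamini-Hochberg adjustment over the 41, 7 members passed 0.05 with r and 8 with rho. Within the 11 libraries above the gap in retained-intron share the median r was 0.23, with 30 above 0.

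The 5 closest to their hosts were Snora16a with Snhg12 (r = 0.86), Mir5125 with Srrm2 (0.84), Mir8094 with Ddx39b (0.84), Mir3060 with Rnf215 (0.82) and Snora34 with Kansl2 (0.80). Spearman's rho for them was 0.89, 0.77, 0.80, 0.77 and 0.76. Without the 2 libraries whose host value was farthest from the median, r was 0.74, 0.69, 0.83, 0.66 and 0.52. Snora16a and Mir8094 share exonic bases with the host, so part of that agreement is the same reads. In Mir5125 the 4 libraries with low shifts read 519, 388, 357 and 329 TPM (AVP males 1 and 2, AVP female 3 and saline female 14), where Srrm2 read 122, 136, 134 and 132 TPM. The other 11 ranged from 553 to 1398 TPM for Mir5125 and from 194 to 290 TPM for Srrm2. Within those 11 the r with the host was 0.50 for Snora16a, 0.39 for Mir5125, 0.68 for Mir8094, 0.34 for Mir3060 and 0.94 for Snora34.

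The 5 farthest from their hosts were Snord72 with the ribosomal protein gene Rpl37 (r = -0.42), Snord37 with the elongation factor gene Eef2 (-0.38), Snord73a with Rps3a1 (-0.32), Mir677 with Atp5b (-0.11) and Snord91a with Tsr1 (-0.11). Their permutation p ran from 0.114 to 0.699 before adjustment. These hosts were far more abundant than the members, except Tsr1 at 30.3 TPM. Eef2 stayed between 1123 and 1444 TPM while Snord37 ran from 9.53 to 216 TPM. Snord37 stood for 3 fragments in AVP male 2 and for 25 in AVP female 10. The 216 TPM of AVP female 11 gave 15 fragments at a step of 14.4 TPM. That step was 1.93 times the median at lengths within 10 nt, so fragments in that library may be counted too low. For the 8 members in 6 ribosomal protein genes the median r was 0.05. Members averaged a median of 36.1% of their host's TPM, and 9 of 41 were above it.

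**Figure D5:**
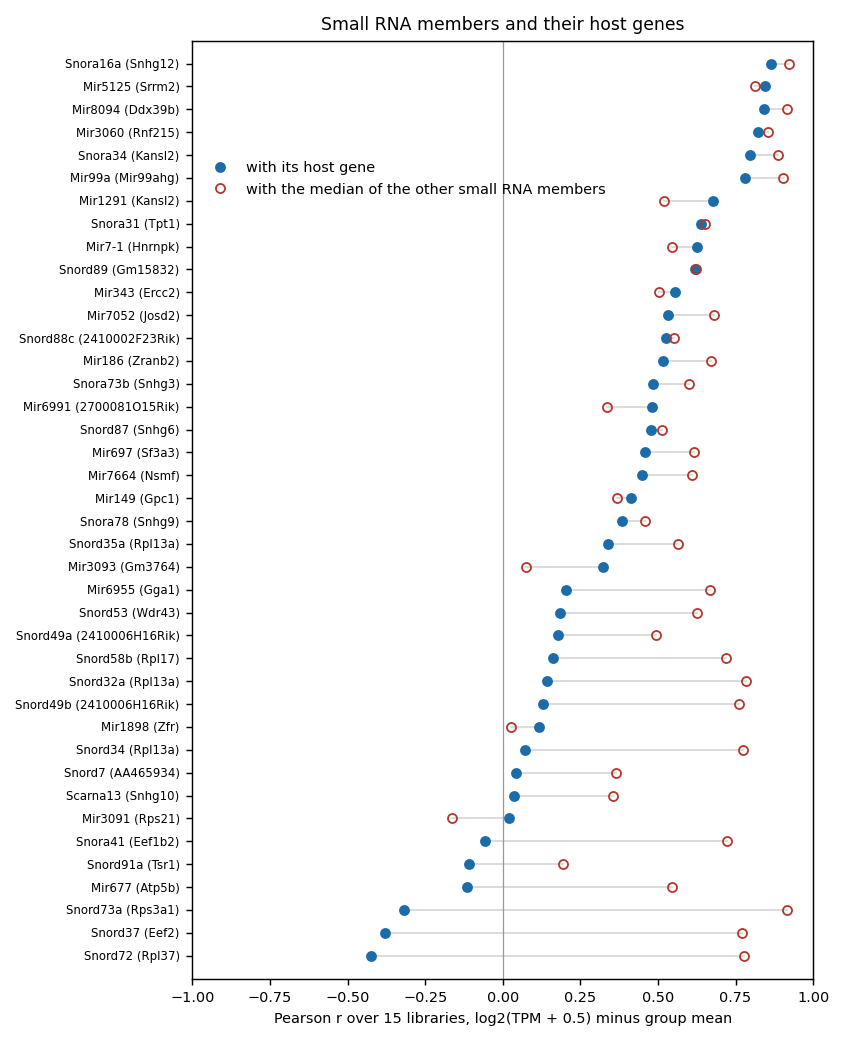
Pearson r of 40 of the 41 small RNA members with a host, over 15 libraries on log2(TPM + 0.5) minus the group mean, with the host gene named in brackets (filled points) and with the median of the other small RNA members (open points). Filled points run from -0.42 for Snord72 to 0.86 for Snora16a, and 31 members have the open point further to the right.

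Members followed each other more than their hosts by this measure. The r with the median of the other small RNA members was above the r with the host in 31 of 41, with medians of 0.62 and 0.38, and was above 0 in 39. Within the 11 libraries it was above in 22 of 41, with medians of 0.27 and 0.23. Over the 15 libraries Snord37 had an r of 0.77 with the other small RNA members and Snord73a of 0.92, where both were below 0 with the host. Within the 11 these values were -0.21 and 0.76, with both still below 0 with the host. Snord55 went against the others, at -0.59 in either set. These are descriptions, since members share libraries and length-dependent steps.

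Members that share a host could be set side by side. Snord32a, Snord34 and Snord35a all come from introns of Rpl13a, and their pairs correlated with r of 0.71, 0.67 and 0.47, while their r with Rpl13a was 0.14, 0.07 and 0.34. Snord49a and Snord49b had an r of 0.55 with each other. Snora34 and Mir1291 had an r of 0.46, although their transcripts overlap. Rpl13a itself ranged only from 1996 to 2955 TPM.

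Proteins that work with these RNAs did not pass the test in either gender. Of 22 snoRNP and scaRNP proteins, 0 passed in males or females by limma with adjustment. Dkc1, the pseudouridine synthase of H/ACA particles, was the one with an unadjusted p under 0.05, at 29.5 ± 2.35 TPM in AVP males and 34.7 ± 2.27 in saline males. The list's median log2 fold change was -0.04 in males and -0.05 in females. Among 18 microRNA processing and effector proteins tested, 0 passed, and 3 were lower in AVP males at an unadjusted p under 0.05, where 12.4% of all genes were lower. They were the RNA-editing enzyme Adar (log2 fold change -0.32), Tnrc6a (-0.40), a scaffold of silencing, and Ago1 (-0.19), with a list median of -0.18 beside -0.10 for all genes. For 28 non-coding host genes the count was 0, with Mir22hg lower and Snhg10 higher in AVP males at the unadjusted level.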

How the data were processed

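Total RNA from E18 dorsal forebrain of 15 offspring was sequenced as stranded mRNA libraries. The deposited table does not name its unit, and its values were read as TPM per transcript. Per the submitters' processing notes, the authors made them with Kallisto 0.43.1 after Trim Galore 0.4.1, on GENCODE M16 transcripts (GRCm38). TPM are relative to transcript length and library total, so depth is unknown. Transcript values were added up per gene using GENCODE M21, which left out 404 transcripts without a gene. Genes with at least 1 TPM in 50% of a comparison's libraries entered limma 3.58.1 (R 4.3.3) on the log2(TPM + 0.5) scale, with a trend, two-sided, and Benjamini-Hochberg adjustment at 0.05. Fold changes on this scale understate changes of low genes. Males and females were fitted separately, with the interaction over all 15 libraries. limma was tested on simulated data. A host is the gene on the same strand that contains a member. Correlations used scipy 1.17.1 and figures matplotlib 3.10.9.

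The members and lists were chosen with earlier results of these data known. Named genes were the 5 highest members per class, the 5 smallest p per comparison, the 3 nearest the limit on each side, the 5 highest and 5 lowest host correlations, Mir6392 with Pnpla3, at most 4 genes per list by p, and members with 1 library apart from its group. Alternatives were other pseudocounts, filters and scalings, limma without trend, the range of S numbers as a covariate, an adjusted p of 0.1, 1 fit of all libraries, subsets of members and leaving out each library. Leaving out Mir6236 and members under 75 nt, and the sets of libraries by retained-intron share, were chosen after seeing the data. The marker lists of choroid plexus, radial glia, microglia and ventral forebrain were also read. No marker in them passed the adjusted threshold, and 2 of 5 tested choroid plexus markers were higher in AVP females at an unadjusted p under 0.05. A host gene and a transcript sequence are not reported here.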

Additional observations from a re-analysis of the deposited data

Results flagged for a closer look

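In groups of 4 libraries, a value was set apart where the gap to its nearest neighbour, as a part of the group's range, exceeded the critical value of Dixon's test. This was so for 7 of 186 groups of values examined, and chance sets apart about 1 in 20. Snord49b read 78.3 TPM in AVP male 9, where the other AVP males reached at most 7.003 TPM. Snord32a read 147 TPM in saline male 12, next to 39.6 TPM in the nearest saline male. Snord53 read 74.5 TPM in AVP male 9, with 38.5 in the nearest. In saline female 7, Snord72 read 140 TPM and Snord7 128 TPM, with 52.5 and 53.3 in the nearest saline females, and the same library had the highest TPM of 1 fragment at 70 nt and at 83 nt. Snord73a read 58.2 TPM in saline male 4, with 44.7 in the nearest. Snora43 read 60.5 TPM in saline female 14, below the 133 TPM of the nearest. The causes were not tested.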

How the results depend on the processing

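No member passed the adjusted threshold in females or in the interaction under any alternative run. In males 1 did without AVP male 2 (range 0 to 1 over left-out libraries), where 6 of 15107 genes passed. It was Snord37, with a log2 fold change of 1.36 ± 0.14 and an adjusted p of 0.0222 by limma. Its values stood for 14, 13 and 14 fragments in AVP males 1, 8 and 9. In saline males 4, 5 and 13 they stood for 10, 11 and 8, and saline male 12 was not resolved. At its length of 64 nt the mean step was 5.64 TPM over 4 AVP males and 3.79 over 3 saline males. The part of the step in this call was not tested. The log2 ratio of summed TPM went from 0.18 to -0.202 in males and from 0.08 to 0.348 in females without Mir6236, and over left-out libraries it ran from 0.075 to 0.243 in males and from -0.0992 (without AVP female 3) to 0.211 in females. The members' median minus that of all genes was -0.32 in males and 0.09 in females, and ran from -0.544 to 0.0655 (without AVP male 2) and from -0.0525 (without saline female 14) to 0.348 (without AVP female 3). The median host correlation of 0.38 moved to 0.52 with members at 5 TPM in all 15 libraries, to 0.235 without centring on the group and to 0.224 without the host's retained-intron transcripts, and ran from 0.291 to 0.403 over left-out libraries. The cause was not tested. Without saline male 12, 3 members were lower and 0 higher in males at an unadjusted p under 0.05, beside 7.10% and 1.04% of all genes. No paired analysis was possible because the groups share no replicate number. Values of a few fragments limit single members, and depth is not in the table.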
